A study of Mus musculus with 4 samples.

Results

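Il33 was followed as 1 gene of the 383 genes in a MERFISH panel, a method that images and counts single mRNA molecules in place, in 4 coronal sections through the mouse striatum. It was chosen by its measured level in oligodendrocytes, in white and grey matter and at both ages, so its values in those comparisons are given as a description and carry no test. The 2 Young sections came from mice of 2 months and the 2 Aged sections from mice of 18 months, and all were wild-type C57BL/6NTac mice with no treatment or transgene named in the study's methods. Labels give each group as an age and a number, and the study's methods state that its replicates were biological. The p-values for age rest on the spread between these sections, an estimate that shares information across genes. Those that compare places within a section have the section as a block and rest on how that contrast varies between sections. Here the sections are called Young 1, Young 2, Aged 1 and Aged 2.

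IL-33, the protein made from Il33, is a cytokine of the IL-1 family. It is stored in the nucleus and is known as an alarmin, because it is set free when a cell is damaged and then signals to other cells. Its receptor pairs ST2 with a shared IL-1 receptor subunit and signals through MyD88 to NF-κB, and microglia are among the cells of the brain that respond to it. Oligodendrocytes, the myelin-forming cells, and astrocytes are its known sources in the brain and spinal cord. Among its relatives the panel held Il1a, Il1b and Il18, but neither receptor subunit (Il1rl1, Il1rap) nor Myd88, so the receiving side of the signal could be read only through genes further downstream.

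Il33 lies on the plus strand of mouse chromosome 19 (GRCm38, 29925114 to 29960718), spans 35605 bases and has 5 annotated transcripts of 2 to 8 exons. RefSeq gives it 2 promoters, which are shown because the gene can start at either and the transcripts counted here cannot be assigned to one of them. The stretches printed are the 250 bases before each start on the plus strand of GRCm38.p6, chr19:29924863-29925112 and chr19:29945540-29945789, and capitals mark the letters TATAAA.
Upstream promoter: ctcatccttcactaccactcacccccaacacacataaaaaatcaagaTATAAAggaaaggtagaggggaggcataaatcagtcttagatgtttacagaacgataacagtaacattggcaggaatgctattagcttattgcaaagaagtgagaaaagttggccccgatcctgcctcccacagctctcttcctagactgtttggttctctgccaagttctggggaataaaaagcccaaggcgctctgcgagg
Downstream promoter: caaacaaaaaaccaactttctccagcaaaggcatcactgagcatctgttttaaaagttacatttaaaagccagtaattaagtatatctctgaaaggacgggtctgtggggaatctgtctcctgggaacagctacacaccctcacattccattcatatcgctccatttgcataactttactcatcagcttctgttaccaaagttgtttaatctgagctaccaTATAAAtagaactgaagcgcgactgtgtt
The starts lie 20677 bases apart. Each stretch held 1 match to TATAAA on either strand, letters found in 12.4% of 32851 mouse promoter stretches of this length, and no match to ACAAAG, the core letters bound by Sox factors, or to the E-box CAGCTG. GC content was 45.2% in the upstream and 39.6% in the downstream promoter. A match describes the letters alone.

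Of the segmented cells, those large enough and rich enough in genes numbered 68011 and 70774 in the Young and 68415 and 74624 in the Aged sections, with no cell shared between sections. A median cell held 400 and 325 transcripts in the Young and 215 and 293 in the Aged sections, so each level below is given per 10000 transcripts of all genes unless another scale is named. Il33 made up 16.7 and 18.4 per 10000 transcripts of all cells in Young 1 and 2, and 44.6 and 35.01 in Aged 1 and 2.

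**Figure D1:**
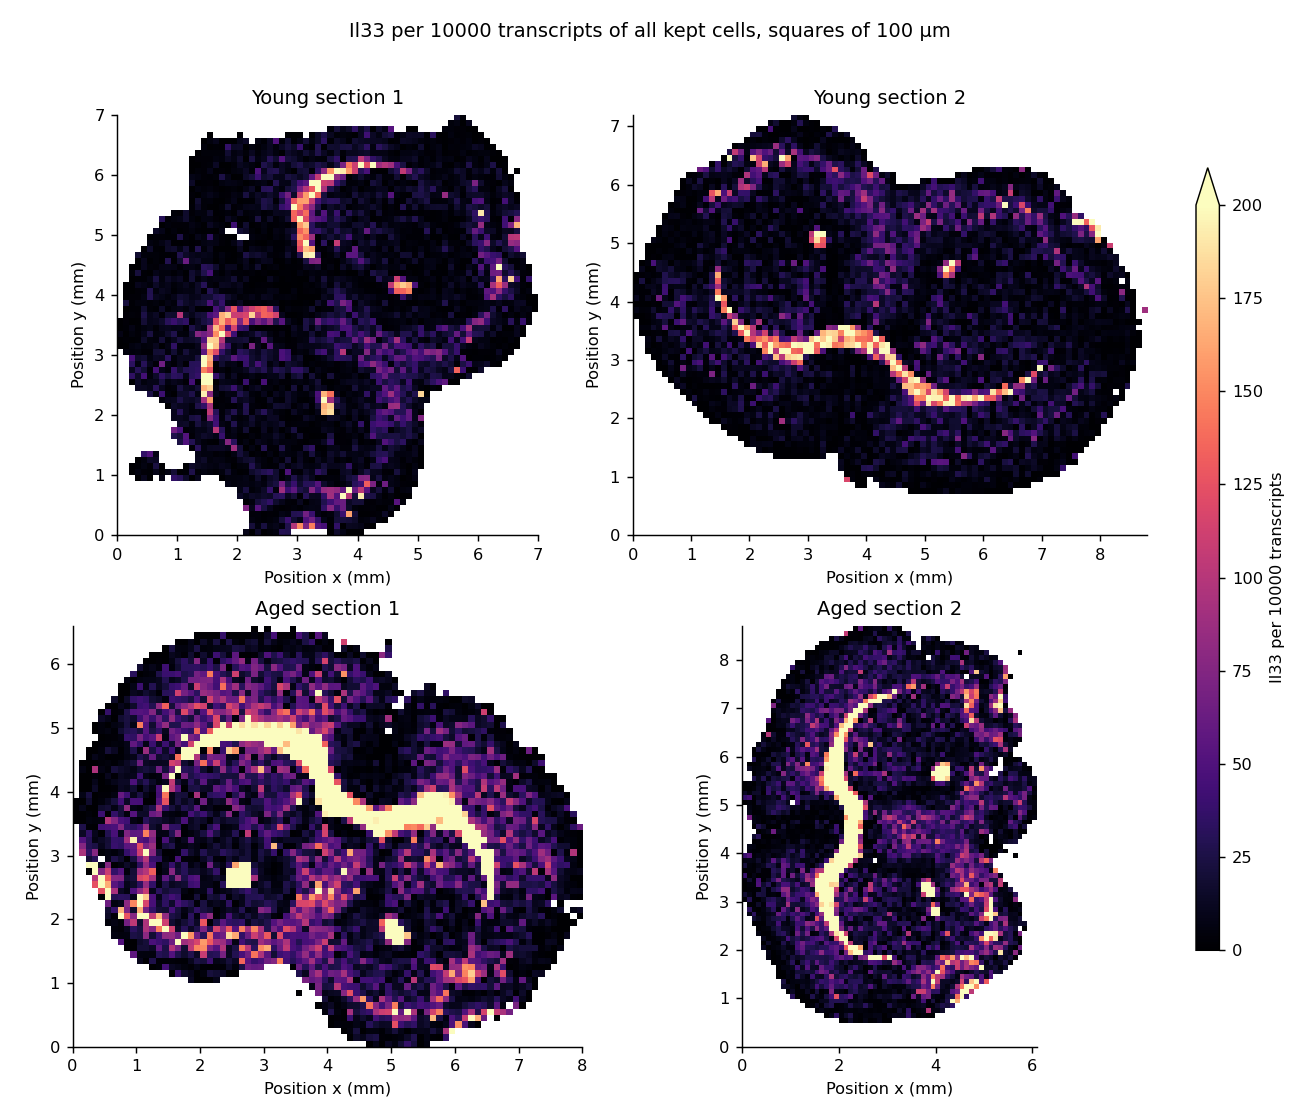
Il33 per 10000 transcripts of all kept cells in squares of 100 µm, mapped over the 4 sections (axes in mm, same colour scale in each, which ends at 200). Levels over all cells were 16.7 and 18.4 in the Young and 44.6 and 35.01 in the Aged sections, and the brightest squares follow the bands rich in oligodendrocyte-like cells.

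Oligodendrocyte-like cells were the main carriers of Il33. Their cluster was named from 6 marker genes, all of them enriched, by a median of 45.0-fold. Its leading genes were Cldn11, a tight junction protein of myelin, Mag, a myelin glycoprotein, the iron carrier Trf, Mal and Opalin, both membrane proteins of myelinating cells, and Mobp, a myelin basic protein. Il33, which was left out of the clustering, ranked eighth by fold in this cluster. All oligodendrocyte-like cells held 66.4% and 64.6% of the Il33 transcripts in the Young and 75.04% and 70.8% in the Aged sections, although they were 10.7%, 10.2%, 14.7% and 14.3% of the cells. Neuron-like cells held the next largest part, 18.9% and 21.2% in the Young and 15.2% and 19.6% in the Aged sections. They were 30.2%, 35.2%, 32.2% and 34.5% of the cells. Astrocyte-like cells held between 3.5% and 6.1% of the Il33 transcripts.

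Mixed cells were defined by their markers alone, and overlap between cells in the images was not tested. Cells with at least 3 markers of their own class and 3 of another were taken as mixed. Among oligodendrocyte-like cells they made up 61.3% and 54.4% in the Young and 46.3% and 52.8% in the Aged sections. Each Young section thus lost a larger share than each Aged section when mixed cells were left out, as they were below. This kept 16507 of 35129 oligodendrocyte-like and 21943 of 30545 astrocyte-like cells.

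In oligodendrocyte-like cells Il33 stood at 222 and 244 per 10000 transcripts in Young 1 and 2, and at 454 and 396 in Aged 1 and 2. Astrocyte-like cells were next, with 19.3 and 21.8 in the Young and 27.0 and 25.4 in the Aged sections. The oligodendrocyte-like level was thus 11.2 to 16.8 times the astrocyte-like level within a section. Precursor-like cells, the dividing source of new oligodendrocytes, held 4.90, 5.71, 13.3 and 14.99 per 10000 in the same order of sections. Vascular-like cells held 5.91, 5.57, 10.4 and 6.77, and microglia-like cells, the immune cells of the brain, 2.93, 3.24, 5.85 and 6.42. Neurons were lowest, between 1.77 and 4.18 in neuron-like cells and between 1.30 and 2.56 in medium spiny neuron-like cells, the projection neurons of the striatum. Per 10000 transcripts this order held in all 4 sections for every pair of neighbours but precursor-like and vascular-like cells, which changed places in 1 of the 4. Per cell the lower ranks differed. Microglia-like cells then lay below medium spiny neuron-like cells in all 4 sections, and neuron-like cells lay above precursor-like cells in 3 of the 4. With mixed cells kept, neuron-like cells came second per cell, above astrocyte-like cells in all 4 sections.

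Depth differed between classes, and a share of cells with Il33 depends on depth, so each cell was also thinned to 100 transcripts and shallower cells were left out, which kept 1919 and 2037 oligodendrocyte-like cells in the Young and 2696 and 2884 in the Aged sections. At that depth Il33 was found in 72.8% and 76.5% of oligodendrocyte-like cells in the Young and in 93.8% and 92.2% in the Aged sections. Before thinning the shares were 74.0%, 73.0%, 86.8% and 86.6%, at median depths of 162, 138, 100 and 120 transcripts. Medium spiny neuron-like cells, taken as the class that should lack Il33, had it in 1.47% to 2.66% at equal depth, from median depths of 213 to 376. Astrocyte-like cells lay above that background in every section, at 16.1%, 18.0%, 22.5% and 20.4% of the 2257 to 2717 cells left. Shares at equal depth are expected values, the mean over cells of the probability that Il33 is kept. Their 95% Wilson intervals treat them as observed counts of cells and leave out the spread between sections. These were at most 3.98 percentage points wide in oligodendrocyte-like, 3.44 in astrocyte-like and 0.668 in medium spiny neuron-like cells.

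Il33 was also counted against the oligodendrocyte markers in the same cells. Oligodendrocyte-like cells held 7.29 and 8.10 Il33 transcripts per 100 oligodendrocyte marker transcripts in the Young and 16.7 and 15.1 in the Aged sections. Astrocyte-like cells of all places together held 81.6 to 102 per 100, many times the ratio in oligodendrocyte-like cells. In white matter, defined below, their ratio was 0.0816, 0.136, 0.302 and 0.211 times that in grey matter. At 75 to 150 µm inside white matter it was 5.60, 12.9, 37.5 and 18.7, from 7, 8, 27 and 14 Il33 transcripts. Oligodendrocyte-like cells at that depth held 7.46, 7.66, 17.3 and 14.7. Among astrocyte-like cells with no oligodendrocyte marker at all the level was 18.3, 20.9, 26.0 and 23.04 per 10000. Microglia-like cells held 4.16 and 5.52 per 100 markers in the Young and 11.2 in both Aged sections, below the ratio of the oligodendrocyte-like cells in each section. Whether the low counts in the other classes came from neighbouring cells was not tested.

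**Figure D2:**
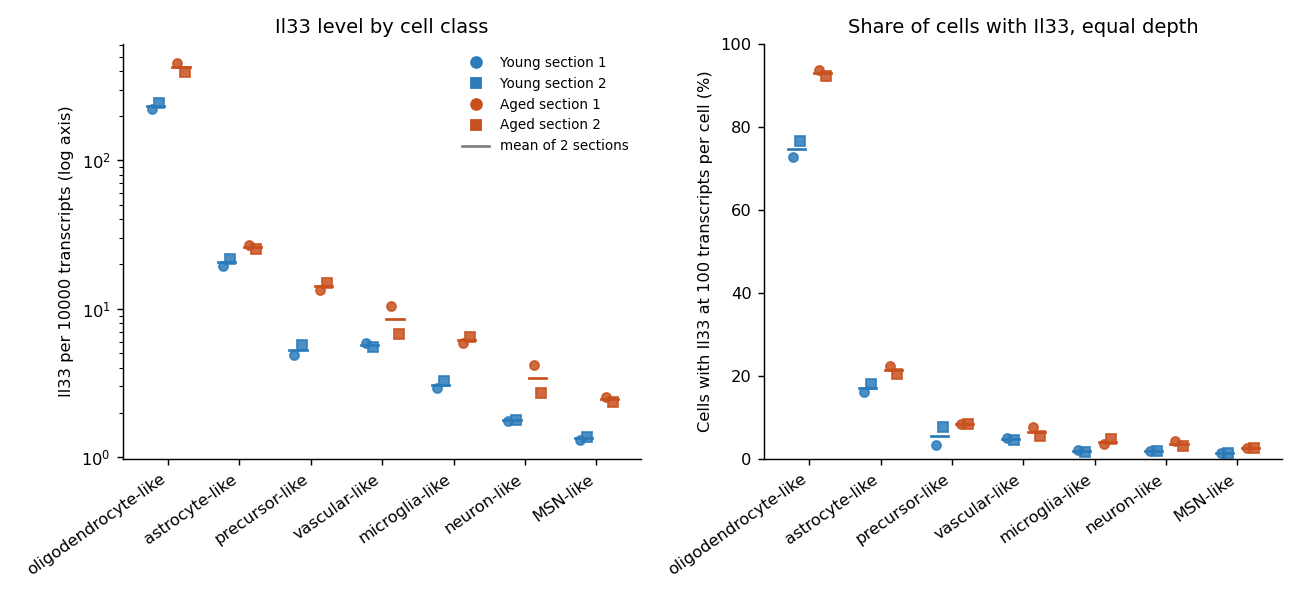
Il33 per 10000 transcripts on a log axis (left) and the percentage of cells with Il33 after thinning to 100 transcripts (right) for each cell class, with 1 point per section. Oligodendrocyte-like cells lie at 222 to 454 per 10000 and the next class, astrocyte-like cells, at 19.3 to 27.0.

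Along the oligodendrocyte lineage Il33 was low before maturation. Precursor-like cells with more transcripts of Pdgfra, the growth factor receptor of the early precursor, than of Gpr17, a receptor of committed cells, held 3.72, 6.10, 11.3 and 12.7 per 10000. Those with more Gpr17 than Pdgfra held 5.54, 5.40, 15.2 and 16.3. The stages overlapped, and the second rested on only 75 to 198 cells per section. Both lay far below the oligodendrocyte-like level in each section.

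With age, Il33 in oligodendrocyte-like cells was higher on every scale used. The mean was 232.7 ± 15.8 per 10000 in the Young and 424.8 ± 41.1 in the Aged sections (SD, n = 2 each), a 1.83-fold difference, and the groups did not overlap. The edgeR fit gave a log2 difference of 0.79 (SE 0.19). Per cell, the means were 4.42 ± 0.175 and 5.72 ± 0.301 transcripts, a log2 difference of 0.37. Per 1000 µm³ of cell volume the sections stood at 9.35 and 8.67 against 9.91 and 11.4, a log2 difference of 0.24. Per oligodendrocyte marker transcript it was 1.05. The size of the age difference therefore ran from 0.24 to 1.05 on the log2 scale with the quantity that Il33 was set against, and Aged cells held fewer transcripts in all.

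The difference reached across cells. Oligodendrocyte-like cells without any Il33 were 26.0% and 27.0% in the Young and 13.2% and 13.4% in the Aged sections. Those with at least 10 transcripts were 15.2% and 13.7% in the Young and 18.0% and 21.0% in the Aged sections. The median cell held 3 transcripts in both Young and 4 in both Aged sections, and the highest single cell of any class held 53 to 64. Neuron markers in the oligodendrocyte-like cells moved with age too, at 33.8 and 35.02 per 10000 against 54.0 and 48.6, and oligodendrocyte markers stood at 3039 and 3011 against 2712 and 2626. Neuron-like cells themselves held 1.77 to 4.18 Il33 per 10000. The part of these markers in the result was not tested.

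The other classes also had more Il33 per 10000 with age, and in none did Young and Aged sections overlap. The log2 differences by edgeR were 0.34 (SE 0.18) in astrocyte-like, 0.67 (SE 0.29) in vascular-like, 0.80 (SE 0.30) in microglia-like, 0.88 (SE 0.25) in medium spiny neuron-like, 0.97 (SE 0.31) in neuron-like and 1.35 (SE 0.32) in precursor-like cells. The precursor-like mean was 5.30 in the Young and 14.1 in the Aged sections, so the steepest of these differences still lay far below the levels in oligodendrocyte-like cells. It rests on few Il33 transcripts, 5, 12, 22 and 23 in the Pdgfra stage and 8, 11, 16 and 11 in the Gpr17 stage. In cells without an oligodendrocyte marker, the Pdgfra stage held 2.64, 6.38, 8.34 and 5.06 per 10000, so the ages overlapped. There the Gpr17 stage held 4.16, 2.73, 4.33 and 11.4, from 3 to 4 transcripts per section. Per cell, astrocyte-like cells held 0.309 and 0.263 Il33 transcripts in the Young and 0.277 and 0.314 in the Aged sections, so on that scale the ages overlapped. The share of vascular-like cells with Il33 overlapped too before thinning, at 8.20% and 6.21% against 8.34% and 7.67%. After thinning to 100 transcripts it was 5.09% and 4.47% against 7.60% and 5.64%, with no overlap. Precursor-like, microglia-like and both neuronal classes had no overlap of that share before thinning. Whether the age difference itself differed between classes was not tested.

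White matter was taken as places where at least 40% of the cells within 75 µm were oligodendrocyte-like, and grey matter as places where under 20% were. White matter covered 1.70 and 2.04 mm² in the Young and 3.14 and 2.88 mm² in the Aged sections. Its largest connected area was 0.67 mm² in Young 1 against 1.69 to 2.28 mm² in the others, and Young 1 held 2 areas of at least 0.5 mm² where each other section held 1. The part of the plane of section in the results was not tested.

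Per 10000 transcripts, oligodendrocyte-like cells of white and grey matter differed little. In white matter Il33 stood at 221 and 244 in the Young and 486 and 408 in the Aged sections. In grey matter it stood at 213 and 242 in the Young and 405 and 368 in the Aged sections. White over grey matter was 1.04 and 1.01 in the Young and 1.201 and 1.11 in the Aged sections. The border between them held 246, 247, 431 and 397, within or close to the values on either side.

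The scale decided how large the contrast of white and grey matter looked. Per cell, white matter cells held 5.52, 5.05, 6.94 and 7.55 Il33 transcripts and grey matter cells 3.46, 3.50, 4.03 and 4.19, ratios of 1.44 to 1.80. White matter cells were also larger, with median volumes of 563 to 658 µm³ against 293 to 351 µm³. Per volume the ratios lay on both sides of 1, from 0.885 to 1.08. With TMM scaling, which assumes that most genes do not differ, edgeR gave a log2 ratio of 0.50 (SE 0.12), and with plain library totals 0.12. TMM moved the median of all genes by 0.38 in this contrast. A change of scaling moves all genes nearly alike, so Il33 stood 0.37 above that median under both by construction. Per oligodendrocyte marker transcript, white over grey matter was 0.978 and 0.935 in the Young and 1.02 and 0.971 in the Aged sections.

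**Figure D3:**
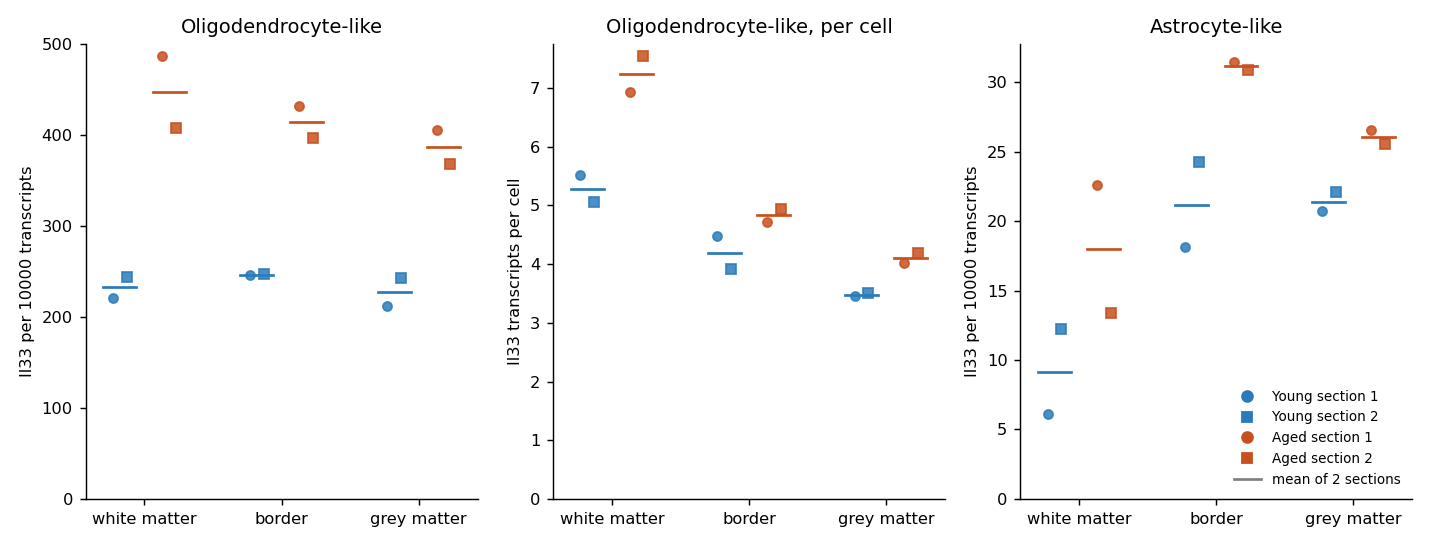
Il33 per 10000 transcripts (left) and per cell (middle) in oligodendrocyte-like cells and per 10000 in astrocyte-like cells (right) of white matter, border and grey matter, with 1 point per section, a line at each mean and age by colour. Oligodendrocyte-like cells of Aged sections lie at 368 to 486 per 10000 in all zones and those of Young sections at 213 to 247, whereas astrocyte-like cells are lowest in white matter.

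The age difference in oligodendrocyte-like cells was 1.92-fold in white matter, 1.68-fold at the border and 1.70-fold in grey matter. The interaction of age and matter, the log2 age difference in white matter minus that in grey matter, was 0.42 (SE 0.081) by edgeR with TMM scaling. It was 0.17 both with library totals and by limma and 0.28 by DESeq2, and between 0.37 and 0.46 by edgeR with each section left out. It is built from the levels that chose Il33 and is given as a description, with no test. Per volume and per oligodendrocyte marker the additional log2 difference in white matter was 0.12 and 0.054. For the share of cells with Il33 at equal depth it was −0.055, so the direction too depended on the measure.

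Per 10000 transcripts, the level in oligodendrocyte-like cells differed little with distance from the white matter edge. More than 150 µm inside white matter Il33 stood at 196, 233, 478 and 393 per 10000. In the first 50 µm outside it stood at 228, 231, 421 and 403, and beyond 800 µm at 207, 274, 441 and 349. Aged sections lay above Young sections at each of these distances. Per cell, the level was higher inside, at a mean of 4.80 ± 0.687 transcripts in the Young and 7.62 ± 0.492 in the Aged sections deep inside white matter against 3.38 ± 0.245 and 3.67 ± 0.173 beyond 800 µm (SD, n = 2 each). On that scale the Young and Aged sections overlapped beyond 800 µm.

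Astrocyte-like cells went the other way. In white matter they held 6.13, 12.2, 22.6 and 13.4 Il33 per 10000, from 34, 50, 121 and 67 transcripts in 300 to 455 cells per section. In grey matter they held 20.7, 22.1, 26.6 and 25.5, so white over grey matter was 0.296, 0.553, 0.852 and 0.525. The mean log2 ratio was −0.94 ± 0.63 (SD, n = 4), against 0.12 ± 0.11 in oligodendrocyte-like cells, with opposite signs in every section on this scale. Per volume, white over grey matter lay below 1 in Young 2 and Aged 2 for oligodendrocyte-like cells too, and in all sections for astrocyte-like cells. Oligodendrocyte markers were more frequent in white matter astrocyte-like cells, at 52.0 to 68.6 per 10000 against 16.9 to 22.5 in grey matter.

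Outside the white matter edge, astrocyte-like cells held 10.1, 12.1, 23.7 and 17.4 per 10000 in the first 50 µm and 25.1, 21.5, 31.5 and 34.0 between 100 and 200 µm. Between 400 and 800 µm they held 22.4, 28.6, 31.6 and 26.9, and beyond 800 µm 18.5, 17.0, 18.7 and 14.9. At both of these distances Young and Aged sections overlapped.

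**Figure D4:**
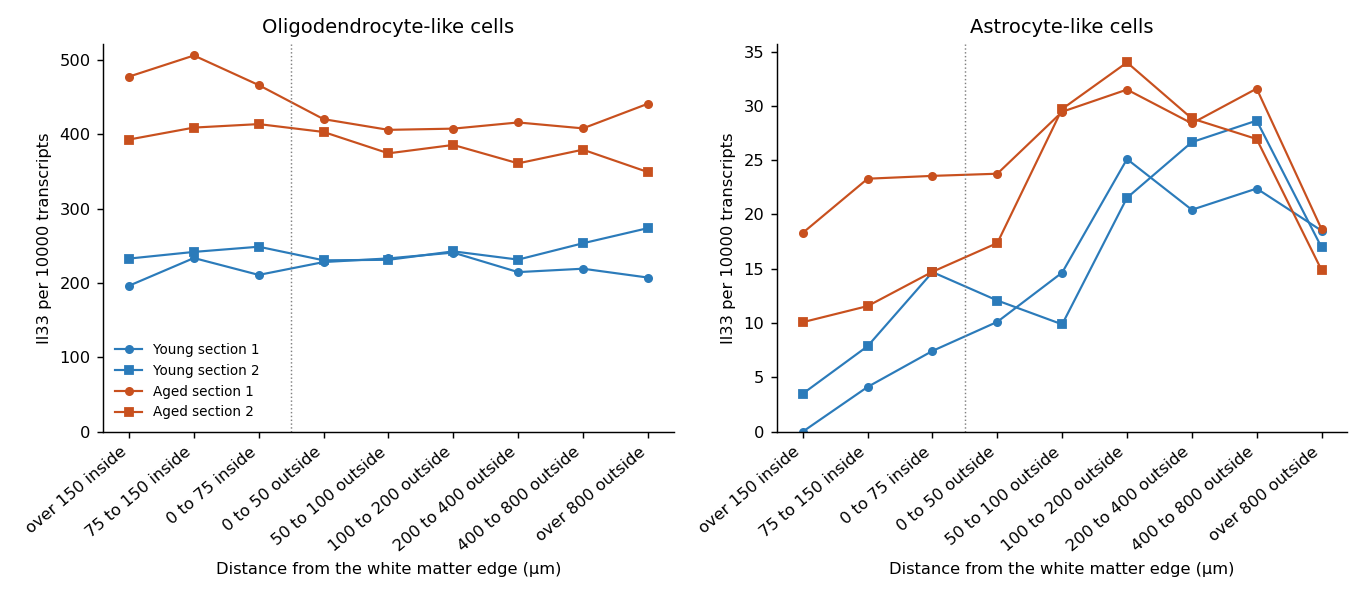
Il33 per 10000 transcripts by distance from the white matter edge (µm, inside on the left of the dotted line) in oligodendrocyte-like and astrocyte-like cells, with 1 line per section. Oligodendrocyte-like cells keep their level from 196 to 478 deep inside to 207 to 441 beyond 800 µm outside, and astrocyte-like cells lie at 10.1 to 23.7 in the first 50 µm outside and at 21.5 to 34.0 between 100 and 200 µm.

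Region within a matter type gave tests that the choice of Il33 had not used. In grey matter, astrocyte-like cells of the striatum held 25.03, 31.1, 30.7 and 36.6 Il33 per 10000, and those elsewhere 19.0, 19.8, 25.1 and 21.3. Each section was higher in the striatum, by 1.22 to 1.71 times, and edgeR gave a log2 ratio of 0.71 (SE 0.10) with an adjusted p of 0.000163. In this contrast 37.2% of all genes passed. The call held with library totals, where the log2 ratio was 0.53 and the adjusted p 0.00373. Medium spiny neuron-like cells held 1.30 to 2.56 Il33 per 10000, and their part in the result was not tested.

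Oligodendrocyte-like cells of the same places showed no such contrast. In striatal grey matter they held 212, 233, 368 and 362 per 10000 and in other grey matter 213, 248, 427 and 371. The log2 ratio by edgeR was −0.04 (SE 0.042) with an adjusted p of 0.589, in a contrast where 24.6% of genes passed. With mixed cells kept it was −0.56 with an adjusted p of 4.78e-05, so this comparison depended on which cells entered. In white matter, the largest connected area held 226, 241, 506 and 398 and other white matter 217, 265, 407 and 451. There the log2 ratio was 0.04 (SE 0.070) with an adjusted p of 0.875, and 5.96% of genes passed. Young sections and Aged sections each split in direction.

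The other genes of the IL-1 family did not share the high level of Il33 in oligodendrocyte-like cells. Il18, an inflammasome-processed cytokine, stood at 17.3, 15.6, 19.1 and 18.5 per 10000. Il1a and Il1b, both ligands of the IL-1 receptor, lay below 1 per 10000 in every section. Of the 3, Il1a and Il18 were tested and neither passed between ages by edgeR (adjusted p = 0.154 and 0.795), where 11.1% of all genes passed, 21 higher and 21 lower. Il18 was higher in white than grey matter (log2 ratio 0.38, edgeR adjusted p = 0.0121), but with library totals the ratio was −0.0026, and without Aged 1 or Aged 2 it did not pass. Il1a stood at 26.9 to 36.7 in microglia-like cells and Il18 at 44.1 to 49.8 in astrocyte-like cells, both above their oligodendrocyte-like levels. Neuronal, vascular-like and precursor-like levels of these genes are not given here, nor is the level of Il1b outside oligodendrocyte-like cells.

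Of 14 other cytokines and chemokines, 3 fell with age in oligodendrocyte-like cells and none rose. Over all genes tested 11.1% passed between ages, 21 higher and 21 lower. The median log2 change of the 14 was −0.28 against 0.01 over all genes tested. Tnf, a proinflammatory cytokine, stood at 3.23 and 2.66 per 10000 in the Young and 1.36 and 1.03 in the Aged sections (log2 change −1.37, SE 0.33, edgeR adjusted p = 0.00100). Il7, a lymphocyte growth factor, and Cxcl12, a chemokine that guides precursors, fell by 1.17 and 0.98 on the log2 scale (edgeR adjusted p = 0.0226 and 0.0280). With library totals Tnf alone of the 3 still passed, and without Young 1 it did not (adjusted p = 0.0973). Il7 lost its call without Young 1 or Aged 1, and Cxcl12 when any section was left out. These falls rest on few transcripts.

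Of 7 genes downstream of the IL-33 receptor, the transcription factor Jun fell with age (log2 change −0.60, edgeR adjusted p = 0.0452), from 24.6 and 20.6 to 16.4 and 14.97 per 10000, and the other 6 did not pass. That is a share near the 11.1% of all genes called with age. Jun lost its call with library totals (adjusted p = 0.0857) and when any section was left out. Between white and grey matter, Rela, an NF-κB subunit, Jun and Stat3, a cytokine-activated transcription factor, were higher in white matter, and Ptgs2, the inducible prostaglandin synthase, was lower. There 45.9% of all genes passed. With library totals the calls of Rela and Stat3 were lost and Rela stood at −0.011. Leaving out Young 1 ended the calls of Rela and Ptgs2, as did Aged 2 for Rela and Young 2 or Aged 1 for Ptgs2.

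Of 10 myelin genes, Tspan2, a tetraspanin of the myelinating cell, fell (log2 change −0.54, edgeR adjusted p = 0.0386), and the other 9 did not pass, a share near the 11.1% of all genes called with age. The median was −0.23. Tspan2 stood at 651 and 852 per 10000 in the Young and 587 and 503 in the Aged sections, and its call was lost with library totals (adjusted p = 0.0857) and without Young 1, Young 2 or Aged 2. Mal stood at 759 and 760 against 739 and 596, and Mobp at 376 and 401 against 448 and 377, so the ages overlapped for Mobp. In white over grey matter 9 of the 10 were called higher, in a contrast where 45.9% of all genes passed, 83 higher and 79 lower. The median log2 ratio of the 10 was 0.64 against 0.13 over all genes. Dbndd2 (0.90), the small heat shock protein Cryab (0.84), Mal (0.76) and Cldn11 (0.73) all had larger ratios than Il33 under the same scaling. With library totals 6 of these 9 were still called, while Mobp, Trf and Opalin were not and Mag was lower (log2 ratio −0.15, edgeR adjusted p = 0.00802).

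Of 8 reactive genes, C4b, a complement component made by glia in aged white matter, was the only one called with age. That is a share near the 11.1% of all genes called with age. C4b stood at 4.59 and 4.43 per 10000 in the Young and 37.8 and 27.3 in the Aged sections (log2 change 2.78, SE 0.23, edgeR adjusted p = 3.03e-28). Its interaction of age and matter also passed, where 11.1% of all genes did (log2 1.24, edgeR adjusted p = 0.000516), and held with library totals (0.00390), but not without Aged 1 (0.130). In white matter C4b stood at 4.23, 4.31, 47.8 and 34.0 per 10000, in grey matter at 3.58, 3.997, 20.6 and 15.6. Serpina3n, a protease inhibitor of reactive glia, stood at 1.60 and 1.25 against 1.83 and 3.06 and did not pass. Unlike Il33, C4b was higher in striatal than other grey matter of oligodendrocyte-like cells (log2 ratio 1.29, edgeR adjusted p = 0.00297) and lower in the largest white matter area (−0.82, adjusted p = 7.26e-06), though the latter was not called with mixed cells kept (0.0912).

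Of 8 genes of microglial phagocytosis and lysosomes, 1, again a share near the 11.1% of all genes, was called with age in oligodendrocyte-like cells. The protease Lgmn fell (log2 change −0.56, edgeR adjusted p = 0.0412), a call lost with library totals and without Young 1, Young 2 or Aged 2. In microglia-like cells, a class that can respond to IL-33, 0 of 42 tested list genes passed between ages by edgeR, with 10 at an unadjusted p under 0.05, and DESeq2 called 1. There 0.301% of all genes passed, so this comparison made hardly any call. In astrocyte-like cells 0 of 50 list genes passed by edgeR, with 4 at an unadjusted p under 0.05, and DESeq2 called 1, where 3.17% of all genes passed.

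**Figure D5:**
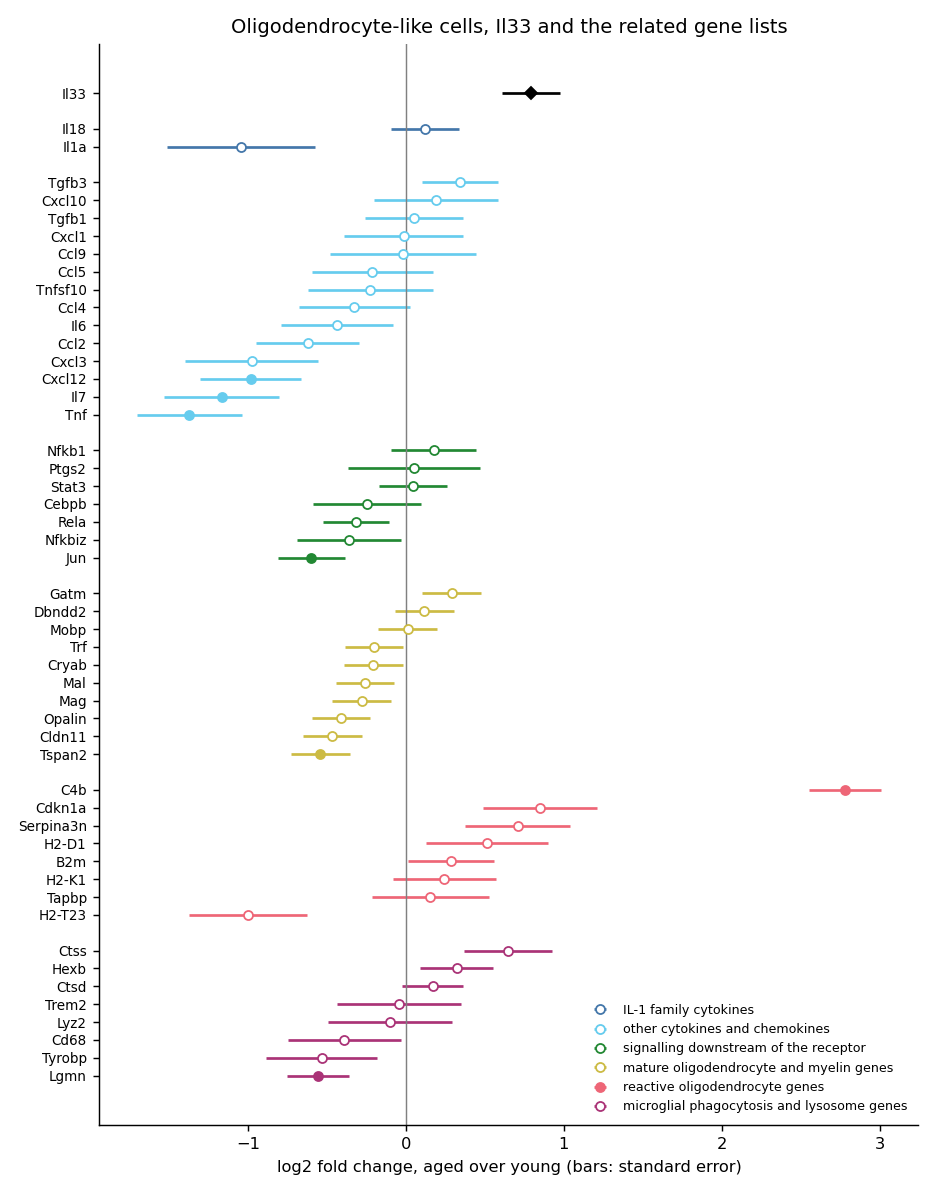
Log2 fold change of Aged over Young sections in oligodendrocyte-like cells for Il33 and the genes of the related lists, with SE bars from edgeR and filled points for genes past an adjusted p of 0.05. C4b lies farthest right at 2.78, Il33 (black diamond, 0.79) carries no test, and Tnf and Il7 lie on the left at −1.37 and −1.17.

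Genes with a course like that of Il33 differed by what the course ran over. Over 7 classes and 4 sections (28 points) the nearest were Mal (Pearson r = 0.95), Cryab (0.88), Plin3 (0.87), Desi1 (0.87), Tnni1 (0.87) and Opalin (0.86). Points of a section share a library and its depth. Over sections and zones within oligodendrocyte-like cells (16 points) they were Sptbn1 (0.97), Ano1 (0.94), Synm (0.92), C4b (0.89), Cbs (0.88) and Spock3 (0.87). Most of these second genes rose with age in the same cells: the chloride channel Ano1 by 2.49 (edgeR adjusted p = 6.84e-10), the sulphur amino acid enzyme Cbs by 1.08 (2.42e-05), Spock3 by 0.88 (0.000175) and the intermediate filament Synm by 0.60 (0.0257) on the log2 scale. Sptbn1, a spectrin of the membrane skeleton, had a log2 change of 0.29 and did not pass (adjusted p = 0.365). Likeness was the rule that chose them, so these changes are no independent support for a shared pattern.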

How the data were processed

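MERFISH of 10 µm sections was decoded and segmented by the authors with MERLIN. The deposited counts are whole decoded transcripts of 383 genes per cell, without normalization. Cell volume, an imaging signal in µm³, and positions were deposited alongside and used as given. Mean transcripts per cell in a further deposited table served only to check the reading of sections. Probe sequences and the part of Il33 they cover are not given in the sources used here. Sections were grouped by title and age label. For the Young sections, numbers within the files differ from the titles, and the titles were followed.

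Following the study's methods, a cell needed at least 10 genes and 50 µm³. Cells were clustered (Louvain, 15 principal components, 20 neighbours, resolution 0.08) without 43 genes, Il33 and the list genes among them, and classes were named from panel markers (at least 3 enriched 1.5-fold). All class names are rebuilt, no doublet caller was run, and mixed cells were left out. Striatal places had at least 40% medium spiny neuron-like cells within 150 µm.

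Counts were summed per section, class and zone and compared with edgeR 4.0.16 (TMM, filterByExpr, quasi-likelihood, Benjamini-Hochberg over all genes tested, threshold 0.05) in R 4.3.3. Zones were compared with the section as a block. DESeq2 1.42.0, limma 3.58.1 (on log2 CPM plus 0.5), no filter, other zone limits, resolution 0.3, kept mixed cells, library totals and leaving out each section were alternatives. On simulated counts edgeR called 91.4% of genes changed at least 2-fold between ages in oligodendrocyte-like cells among 377 tested, 98.4% between white and grey matter among 352 and 62.1% for the interaction among 365. Unchanged genes called there numbered 6, 4 and 1. The simulation gave every gene the same spread and had no differences between sections, so these rates may not carry over to the real counts. Depth was 36035355, 31172121, 18765491 and 29004185 kept transcripts. Clusters, zones and levels were computed in Python 3.11.15 (scikit-learn 1.9.0, scipy 1.17.1, pandas 2.3.3, numpy 2.4.6, igraph 0.11.9).

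Il33 and the gene lists were chosen with earlier results of these data known. Genes named are Il33, the genes of 6 lists past the threshold or needed for a comparison, and the 6 genes nearest in level over classes (log2 of the level plus 0.5, classes of at least 200 cells) and over zones. Medians of a list stand beside the median of all genes. Gene coordinates are from GENCODE and promoters from RefSeq, both on GRCm38.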

Additional observations from a re-analysis of the deposited data

Results flagged for a closer look

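The age difference of Il33 in oligodendrocyte-like cells was larger in white than in grey matter by 0.42 on the log2 scale (edgeR interaction term with TMM scaling, 2 Young and 2 Aged sections). With library totals in place of TMM it was 0.17. The term is built from the levels that chose Il33, so it is no independent support for a difference. Per 10000 transcripts, Il33 over white and grey matter had opposite signs in the glial classes in every section, with a mean log2 ratio of 0.12 in oligodendrocyte-like and −0.94 in astrocyte-like cells. Per volume the sign in oligodendrocyte-like cells was not the same in all sections. The difference between the classes was not tested.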

How the results depend on the processing

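The level of Il33 in oligodendrocyte-like over astrocyte-like cells, 13.8-fold per 10000 transcripts as a mean over sections, was 17.5-fold per cell, 9.01-fold with mixed cells kept, and 4.36-fold and 6.65-fold as a share of cells thinned to 100 and 50 transcripts. The age difference in oligodendrocyte-like cells (log2 0.79) was 0.24 per volume, 0.37 per cell and 1.05 per oligodendrocyte marker transcript, and 0.67 to 0.92 with each section left out. White over grey matter (0.50) was 0.84 with mixed cells kept and 0.12 both by limma and with library totals, and 0.41 to 0.56 with each section left out. The interaction (0.42) was 0.17 by limma and with library totals and 0.37 to 0.46 with each section left out. The largest over other white matter (0.04) was −0.038 with white matter set at 50% and −0.073 to 0.12 with each section left out, below 0 without Aged 1. It was 0.07 over white matter areas of at least 0.5 mm². Striatal over other grey matter in oligodendrocyte-like cells (−0.04) was −0.56 with mixed cells kept, 0.091 at resolution 0.3 and −0.094 to 0.018 with each section left out, above 0 without Aged 1. In astrocyte-like cells that contrast passed under each alternative run, at 0.65 to 0.77 with each section left out. Genes called with age in oligodendrocyte-like cells numbered 42, against 14 with mixed cells kept, 25 at resolution 0.3, 25 by DESeq2, 20 without a filter, 6 by limma and 9 to 46 with each section left out. Genes called between white and grey matter numbered 162, 246 with mixed cells kept and 122 to 150 with each section left out. In astrocyte-like cells 12 genes were called with age, 0 at resolution 0.3 by edgeR (32 at an unadjusted p under 0.05), 1 by limma and 0 to 20 with each section left out, 0 without Aged 1 or Aged 2. In microglia-like cells 1 was called, 6 with mixed cells kept, 3 by DESeq2, 2 by limma, 2 with library totals and 1 to 27 with each section left out, 27 without Aged 2. Same-numbered sections deviated from their age means with a correlation of −0.157 in oligodendrocyte-like, −0.0801 in astrocyte-like and −0.0669 in microglia-like cells. With 2 sections per age this cannot show whether section numbers pair the samples. With the replicate number as a block the age difference of Il33 was 0.79, and 25 genes were called in oligodendrocyte-like, 15 in astrocyte-like and 3 in microglia-like cells; with the crossed numbers as a block, 36, 10 and 3. Among named genes, white over grey matter turned below 0 by limma and with library totals for Ctsd (−0.057 and −0.056), Il18 (−0.0023 and −0.0026) and Rela (−0.013 and −0.011). With mixed cells kept, striatal over other grey matter in oligodendrocyte-like cells turned for Cldn11 (−0.29), Cryab (−0.42), Gatm (−0.38), Mal (−0.29) and Mobp (−0.26). Tspan2 turned in astrocyte-like cells at resolution 0.3 (0.19). Of the other values of named genes under the alternatives, 494 kept their call and 235 lost it, all with the same direction. Library totals, crossed numbers and the limit on area were alternatives chosen after seeing the data. The cause of these changes was not tested.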

Other observations

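Within white matter, astrocyte-like cells of the largest connected area held 6.25, 9.97, 17.3 and 8.62 Il33 per 10000 transcripts in Young 1, Young 2, Aged 1 and Aged 2, and those of other white matter 6.05, 19.3, 34.1 and 29.1. These levels rest on 14 to 63 Il33 transcripts per section in the largest area and on 19 to 58 elsewhere, and the difference was not tested.

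In astrocyte-like cells of grey matter, 9 of the 44 list genes tested were called between the striatum and other grey matter by edgeR, against 37.2% of all genes. C4b was higher in the striatum by 1.02 on the log2 scale (adjusted p = 8.23e-06), and Dbndd2 by 0.80. Cdkn1a, a cell cycle inhibitor, was lower (log2 ratio −0.89, adjusted p = 0.00154), and so was the chemokine Cxcl12 (−0.55, adjusted p = 0.0253). The latter call was lost without Young 1, Young 2 or Aged 1.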
